A study of Mus musculus with 12 samples.

Results

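A set of 10 genes of the Notch pathway was followed through 12 RNA-seq libraries of the mouse mammary tumour line PYMT-R221A. They were the rows of the raw count table whose symbol was Notch1, Notch2, Notch3, Notch4, Jag1, Jag2, Dll1, Hes1, Hey1 or Nrarp. All 10 were found among 55335 genes, and all 10 passed the filter on low counts, which left 14935 genes. Polyadenylated RNA was sequenced in 4 groups of 3 libraries: control cells, cells given 40 µM KCC-07, cells transfected with a scramble siRNA, and cells transfected with an siRNA against Mbd2 (siMBD2). The series title calls KCC-07 an inhibitor of the MBD2 pathway. MBD2 is a protein that binds methylated CpG sites and recruits a repressive chromatin complex. The labels call the replicates biological, carry a batch tag that repeats the replicate number in each group, and name no vehicle and no duration of treatment. All groups share the 1 cell line, which limits what they model.

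Notch receptors sit in the cell membrane and are bound by Jagged and Delta-like ligands on neighbouring cells. Binding exposes the receptor to cleavage by an ADAM protease and by gamma-secretase, and the freed intracellular part joins RBPJ and Mastermind on DNA. Hes1, Hey1 and Nrarp are classical target genes of this complex, and in the mammary gland the pathway is known for a role in luminal cell fate and in tumours.

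Total counts ran from 25831299 to 33956792 per library. In a chi-square test of counts over genes, the statistic divided by its degrees of freedom was 3.43 to 29.5 between replicates 1 and 2 of a group and 22.6 to 135 between replicate 3 and either of them, so the replicate 3 libraries stood apart in every group. Mbd2 was lower in the siMBD2 libraries than in scramble by a fold of 0.436 (edgeR adjusted p = 0.000197). All 7 luminal epithelial markers on the list averaged at least 1 CPM (the count scaled to a common library size, with TMM, edgeR's adjustment for library composition) in control and KCC-07, and 6 of 7 did in both siRNA groups. The endothelial marker gene Cdh5, the mural marker gene Rgs5 and the leukocyte marker genes Adgre1 and Tyrobp were at 0 counts in all 12 libraries. The summed endothelial list reached at most 7.71 CPM in any library. The fibroblast list, with Thy1 at 0, summed to 169 to 202 CPM in the control libraries and 99.2 to 150 CPM in the treated ones, and to 137 to 155 CPM over the siRNA libraries. The leukocyte list summed to 3.10 to 5.30 CPM, 7.41 to 8.90 CPM and 2.66 to 3.68 CPM in the same order. Both sums thus differed between KCC-07 and control without overlap, as did 22.9% of all single genes. Pdgfra (mean 151 CPM in control and 110 with KCC-07) and Col1a1 (33.3 and 22.0) made up most of the fibroblast sum. Col1a2 (0.215 and 0.325) and Col3a1 (0.132 and 0.252) went the other way. Of the 3 fibroblast and 2 leukocyte markers tested, 0 passed with KCC-07 (edgeR adjusted p under 0.05). The part of both lists in the results on the Notch genes was not tested. Expression was measured on bulk RNA, in which fewer cells of a type and less RNA per cell cannot be told apart.

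The promoters of the 3 members that rose with KCC-07 are shown because MBD2 reads CpG sites when they are methylated, and the windows show where CpG letters lie, methylated or not. Each window is the 250 bases before a RefSeq gene start on GRCm38.p6, written 5′ to 3′ on the gene's own strand, with CpG sites in capitals. Windows were matched for 8 of the 10 members, all but the target genes Hes1 and Hey1. RefSeq and GENCODE starts differ: against the GENCODE gene spans given with each gene here, the windows of Notch3 and Nrarp lay outside the gene and that of Jag1 reached 124 bases into it. Of the 9 member windows 3 lay outside, 3 reached in and 3 (Notch1, Jag2 and 1 of Dll1) lay wholly inside.
Notch3 (chr17:32166891-32167140, minus strand): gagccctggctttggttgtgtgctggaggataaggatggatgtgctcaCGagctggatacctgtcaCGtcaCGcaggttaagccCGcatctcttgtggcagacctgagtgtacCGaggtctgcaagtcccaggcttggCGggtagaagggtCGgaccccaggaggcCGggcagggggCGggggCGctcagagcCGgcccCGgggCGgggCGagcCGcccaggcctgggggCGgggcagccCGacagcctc
Jag1 (chr2:137116521-137116770, minus strand): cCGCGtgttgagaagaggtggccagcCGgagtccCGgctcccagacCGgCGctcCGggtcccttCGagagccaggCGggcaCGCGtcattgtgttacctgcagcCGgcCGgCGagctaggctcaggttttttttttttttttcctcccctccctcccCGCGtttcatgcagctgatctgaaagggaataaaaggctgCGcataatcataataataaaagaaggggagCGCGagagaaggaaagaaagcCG
Nrarp (chr2:25180508-25180757, plus strand): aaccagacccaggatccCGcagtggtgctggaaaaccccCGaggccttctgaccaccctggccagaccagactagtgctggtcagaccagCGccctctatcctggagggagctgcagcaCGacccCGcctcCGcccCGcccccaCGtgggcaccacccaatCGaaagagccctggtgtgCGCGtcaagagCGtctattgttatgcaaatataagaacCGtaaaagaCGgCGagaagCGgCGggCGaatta
Notch3 held 17 CpG sites, Jag1 20 and Nrarp 18, against a median of 6 and an upper quartile of 16 over 32841 windows of the same length. Of the members that did not pass the test with KCC-07, Notch1 held 16, Notch2 34, Jag2 54 and Notch4 only 4, and the pair of Dll1 windows held 21 and 13. The counts of the 3 genes that rose thus lay within the range of the others. The core motif bound by RBPJ, TGGGAA, was searched on both strands (as TGGGAA or TTCCCA). It occurred in 0 of the 9 member windows and in 21.6% of all windows, which says only that these letters were not found in these bases. Hes1 and Hey1 had no window, so their promoters were not searched. DNA methylation was not measured here.

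Levels between genes were compared per length, as TMM-scaled CPM divided by the kilobases of annotated exon. In control cells the target gene Hes1, a transcriptional repressor, had the highest level, at 90.4 ± 46.8 CPM per kb (mean ± SD, n = 3), followed by Hey1, a related repressor, at 23.4 ± 7.10. The receptors Notch1 (13.6 ± 4.42) and Notch2 (11.2 ± 2.27) and the ligand Dll1 (10.7 ± 3.82) came next, and their ranges over the 3 libraries overlapped, so they were not ordered beyond their spread. Notch1 also overlapped Hey1. Nrarp, a small inhibitor made in response to Notch, stood at 5.51 ± 2.27 CPM per kb, below all of these. The ligands Jag1 (1.76 ± 0.722) and Jag2 (1.21 ± 0.623) overlapped each other. Notch3 (0.448 ± 0.186) and Notch4 (0.0599 ± 0.0176) lay lowest and overlapped no neighbour.

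**Figure D1:**
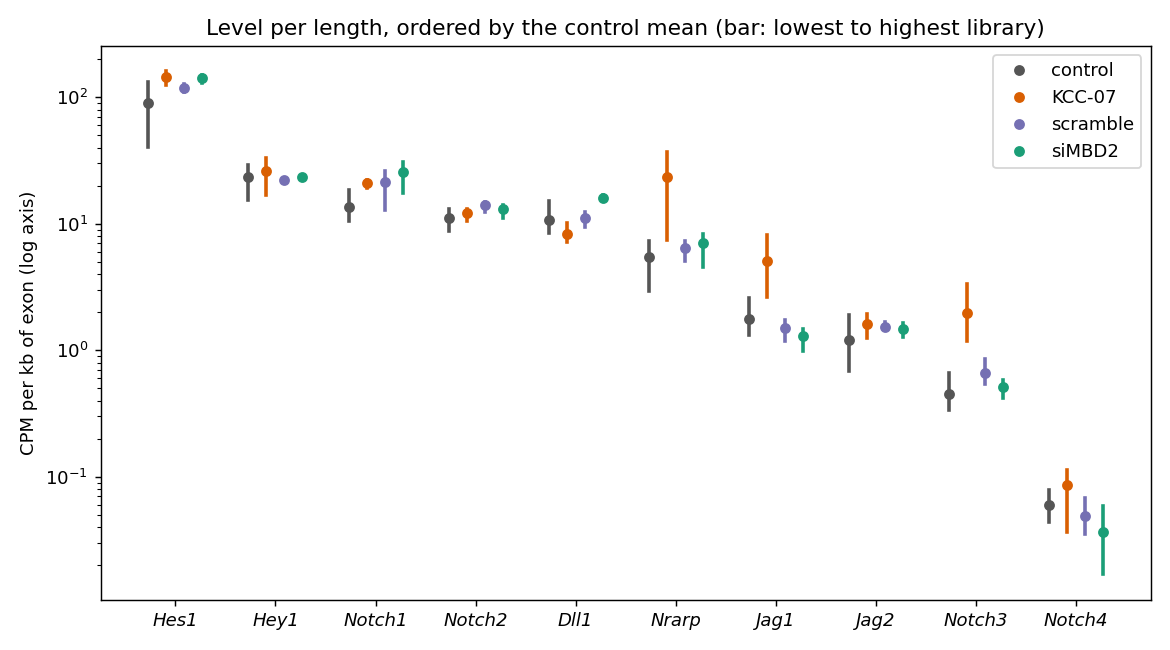
Level of each gene in CPM per kb of exon (log axis), ordered by the control mean, with points for the mean of 3 libraries and bars from the lowest to the highest library. Hes1 lies highest and Notch4 lowest in all 4 groups, and the means of Nrarp, Jag1 and Notch3 lie higher with KCC-07 than in the other groups.

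Notch1 and Notch2 together made up most of the receptor mRNA per length in every group. Notch1 took 53.1 ± 5.82% of the summed receptor level in control, 59.6 ± 1.92% with KCC-07, 58.0 ± 7.86% with scramble and 64.8 ± 4.35% with siMBD2. Notch3 took 1.48 to 2.04% in the control libraries and 3.31 to 10.2% in the KCC-07 libraries. Among the 3 ligands, Dll1 took 69.7, 80.7 and 82.3% in the control libraries and 43.1, 56.5 and 69.9% with KCC-07. Jag1 took 21.6, 12.8 and 7.28% in control and 46.1, 33.8 and 18.3% with KCC-07. These shares are descriptions and were not tested.

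KCC-07 raised 3 of the 10 Notch genes and lowered none: the receptor gene Notch3, the ligand gene Jag1 and the target gene Nrarp. Over all genes, 3.58% were called higher, 2.08% lower and 5.65% in either direction (edgeR quasi-likelihood test, Benjamini-Hochberg adjusted p under 0.05, which is the threshold throughout). Of the 10 members 9 lay above 0, and their median log2 fold change was 0.58, against 0.02 over all genes. With the replicate number as a block within each arm, 5 members rose, as Notch1 and Hes1 joined the 3, while 21.8% of all genes were called. Without the replicate 3 libraries of all 4 groups, 6 rose (Notch1, Notch3, Jag1, Jag2, Hes1 and Nrarp) and 25.6% of all genes were called. DESeq2 called the same 3 as edgeR, with 12.5% of all genes.

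**Figure D2:**
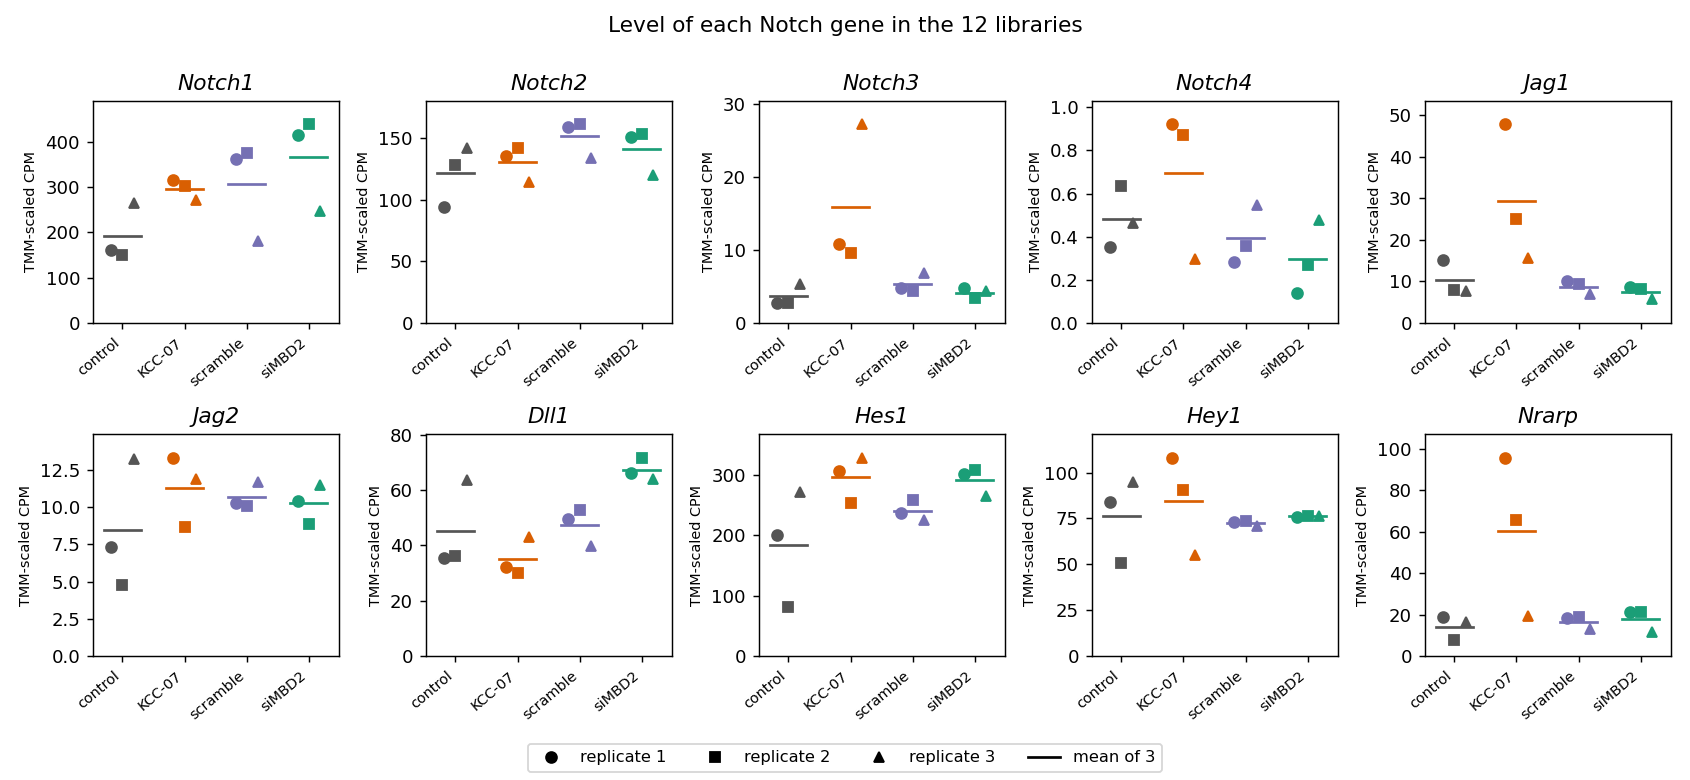
TMM-scaled CPM of each of the 10 genes in the 12 libraries (linear axis from 0, symbols for the replicate number, lines for the group mean). Notch1, Notch3, Jag1 and Nrarp are higher in all KCC-07 libraries than in all control libraries, as are 12.3% of all genes. Replicate 3 is the highest KCC-07 library for Notch3 and the lowest for Jag1 and Nrarp.

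Among the receptors, Notch3 (ENSMUSG00000038146.8, chromosome 17, 32120820 to 32166852, GRCm38) changed most with KCC-07. It stood at 2.78, 2.73 and 5.36 CPM in control replicates 1, 2 and 3 and at 10.8, 9.55 and 27.2 CPM with KCC-07. Every treated library lay above every control library, as for 12.3% of all genes, and replicate 3 was the highest of both groups. The log2 fold change was 2.13 (SE 0.407, edgeR adjusted p = 0.0142), a fold of 4.36, and 2.05 with the block (edgeR adjusted p = 0.000807). Notch3 is also known from mural cells. The other 5 mural markers on the list summed to 15.9 to 17.1 CPM in the control libraries and to 2.56 to 10.7 CPM in the treated ones. They summed to 2.33 to 4 CPM with scramble and 2.17 to 3.73 CPM with siMBD2. Pdgfrb made up most of this sum (mean 16.6 CPM in control and 7.20 with KCC-07). It did not pass with KCC-07 (-1.21, edgeR adjusted p = 0.0998) and was lower in scramble than in control (-2.34, 0.00966). Rgs5 was at 0. Cspg4 (0.0431 and 0.139 CPM), Abcc9 (0 and 0.0351) and Kcnj8 (0 and 0.0112) did not pass the filter on low counts, so no direction is read from them. The part of the mural markers in the Notch3 result was not tested.

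Notch1 (chromosome 2, 26457903 to 26516663), a receptor often activated in tumours, stood at 162, 151 and 265 CPM in control cells and at 317, 302 and 272 CPM with KCC-07. All treated libraries lay above all control libraries, as for 12.3% of all genes. Control replicate 3 came within a few percent of the lowest treated library. The difference did not pass (log2 fold change 0.62, SE 0.295, edgeR adjusted p = 0.213). It passed with the block (0.67, edgeR adjusted p = 0.0292) and without the replicate 3 libraries (0.99, edgeR adjusted p = 0.000128).

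Notch2 (chromosome 3, 98013527 to 98150361), the second abundant receptor, stood at 94.3, 128 and 142 CPM in control cells and at 135, 142 and 114 CPM with KCC-07. The groups overlapped, with a log2 difference of 0.10 (95% interval -0.24 to 0.44, edgeR adjusted p = 0.724). Notch4 (chromosome 17, 34564268 to 34588503), a receptor best known from endothelium, was close to the detection limit, with 12, 19 and 16 counts in control and 27, 26 and 8 with KCC-07. Its difference of 0.54 had a 95% interval of -0.58 to 1.66 (edgeR adjusted p = 0.549), so the data bound the change only within that range.

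Of the ligand genes, Jag1 (ENSMUSG00000027276.7, chromosome 2, 137081456 to 137116644) rose with KCC-07. It stood at 15.1, 7.93 and 7.77 CPM in control cells and at 47.8, 25 and 15.5 CPM with KCC-07. All treated libraries lay above all control libraries, as for 12.3% of all genes. The lowest treated library, replicate 3, lay just above the highest control library. The log2 fold change was 1.52 (SE 0.382, edgeR adjusted p = 0.0415), a fold of 2.86, and 1.45 with the block (edgeR adjusted p = 0.00104). Within the replicate numbers the folds were 3.16, 3.15 and 1.99.

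Jag2 (chromosome 12, 112907819 to 112929776), a further Jagged ligand, stood at 7.32, 4.8 and 13.2 CPM in control cells and at 13.3, 8.65 and 11.9 CPM with KCC-07. The groups overlapped, and the difference of 0.42 did not pass (edgeR adjusted p = 0.410), while without replicate 3 it was 0.86 (edgeR adjusted p = 0.0287). Dll1 (chromosome 17, 15367354 to 15376872), a Delta-like ligand, stood at 35.4, 36.1 and 63.6 CPM in control cells and at 32.3, 30.2 and 42.9 CPM with KCC-07. It was the only member below 0, at -0.36 (95% interval -0.83 to 0.12, edgeR adjusted p = 0.327), and treated libraries were lower in each of the 3 pairs.

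Of the target genes, Nrarp (ENSMUSG00000078202.3, chromosome 2, 25180758 to 25183339) rose with KCC-07. It stood at 18.8, 7.63 and 16.3 CPM in control cells and at 95.6, 65.8 and 19.4 CPM with KCC-07. Replicates 1 and 2 of the treated group were far above the controls, and replicate 3 was barely above the highest of them. For 12.3% of all genes all treated libraries lay above all control libraries. The log2 fold change was 2.08 (SE 0.496, edgeR adjusted p = 0.0338), a fold of 4.23, and 1.92 with the block (edgeR adjusted p = 0.0207). Within the replicate numbers the folds were 5.08, 8.62 and 1.19, and without the replicate 3 libraries the log2 fold change was 2.60 (edgeR adjusted p = 0.00121).

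Hes1 (chromosome 16, 30064384 to 30067796) stood at 200, 82.1 and 271 CPM in control cells and at 306, 253 and 328 CPM with KCC-07. Control replicate 2 was far below the other control libraries, and the groups overlapped. The difference of 0.68 did not pass (SE 0.303, edgeR adjusted p = 0.189). It was 0.83 with the block (edgeR adjusted p = 0.0279), and treated libraries were higher in each of the 3 pairs. Hey1 (chromosome 3, 8663359 to 8667256) stood at 83.7, 50.5 and 95.1 CPM in control cells and at 108, 90.5 and 55.2 CPM with KCC-07, with pairs 1 and 2 higher and pair 3 lower by a fold of 0.580. Its difference of 0.15 had a 95% interval of -0.37 to 0.66 (edgeR adjusted p = 0.743).

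**Figure D3:**
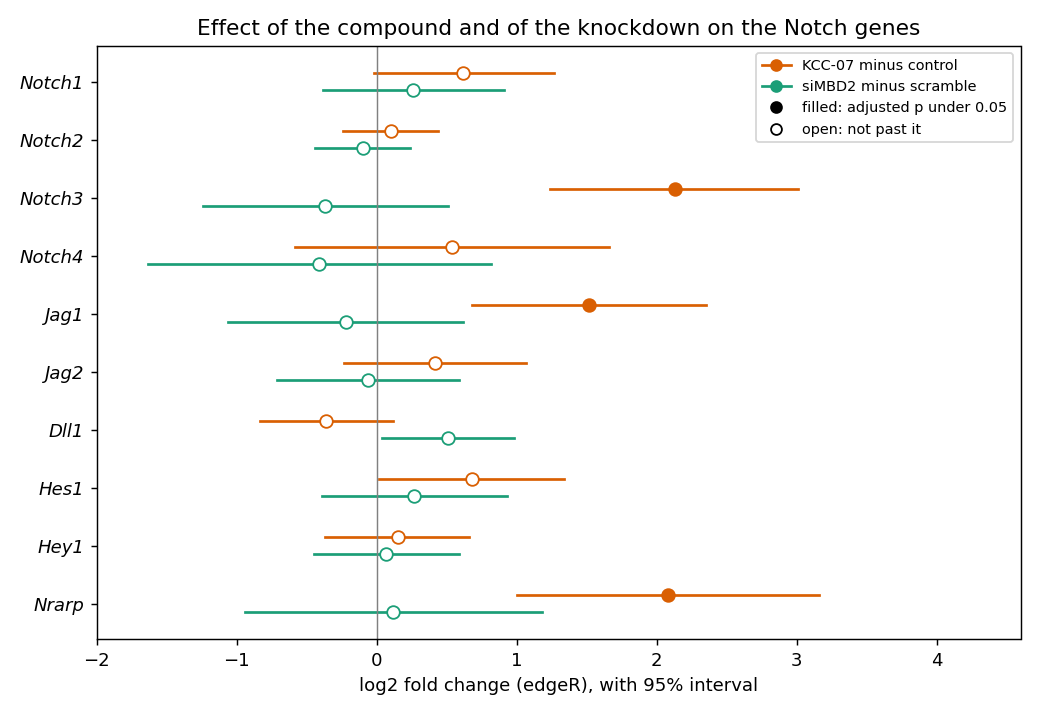
Log2 fold change with its 95% interval from edgeR for the 10 genes, for KCC-07 minus control and siMBD2 minus scramble (filled points pass the threshold). Only Notch3, Jag1 and Nrarp with KCC-07 are filled, and every interval of the knockdown but that of Dll1 includes 0.

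None of the 3 calls held under every omission of 1 library, though the differences stayed above 0. Without control replicate 2 none of the 3 passed (edgeR adjusted p = 0.0606 for Notch3, 0.132 for Jag1 and 0.108 for Nrarp), and 2.51% of all genes did. Leaving out control replicate 1 ended the calls of Notch3 (0.0606) and Nrarp (0.0691), with 2.63% of all genes called, and leaving out control replicate 3 did so for Jag1 (0.0622), with 13.9% called, all as edgeR adjusted p. When KCC-07 replicate 1 was left out, Jag1 (0.0992) and Nrarp (0.0839) did not pass, with 4.14% of all genes called (edgeR adjusted p). When KCC-07 replicate 2 was left out, Jag1 (0.0544) and Nrarp (0.0628) did not pass, with 4.58% called (edgeR adjusted p). Without KCC-07 replicate 3 Notch3 (0.0206), Jag1 (0.0142) and Nrarp (0.00529) all passed, with 5.09% called (edgeR adjusted p). Over the 6 omissions the log2 fold change ran from 1.49 to 2.52 for Notch3, 0.98 to 1.90 for Jag1 and 1.58 to 2.50 for Nrarp. In the KCC-07 and control libraries fitted alone, 0 of the 10 members passed, where 1 gene in all did (0.00688%), and with the block as well Notch3 and Jag1 passed, beside 2.84% of all genes.

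The KCC-07 libraries ordered the members in several ways. Notch1, Notch4, Jag1, Hey1 and Nrarp, 5 of the 10, were highest in replicate 1 and lowest in replicate 3. Notch3, Dll1 and Hes1 were highest in replicate 3 and lowest in replicate 2, Jag2 was highest in replicate 1 and lowest in replicate 2, and Notch2 was highest in replicate 2. The place of Notch4 rests on 27, 26 and 8 counts. These orders were not counted over all genes, so whether they are particular to the members is not known. The summed basal and myoepithelial markers were 703, 506 and 355 CPM in these libraries, and mitochondrially encoded transcripts took 1.82, 1.55 and 3.90% of counts. In control the same sums were 564, 579 and 685 CPM and 1.45, 1.47 and 2.81%. The part of either measure in the values of the Notch genes was not tested. Of the 7 luminal markers 6 rose with KCC-07, against 3.58% of all genes: Krt18 (log2 fold change 0.43), Krt19 (0.97), Epcam (0.45), Cdh1 (0.39), Cldn3 (1.55) and Cldn7 (1.78), with edgeR adjusted p from 0.0200 to 0.0498. Krt8 differed by -0.17 (edgeR adjusted p = 0.521), and the luminal list summed to 1420 to 1490 CPM against 1140 to 1310 CPM in control. It summed to 1390 to 1480 CPM with scramble and 1300 to 1460 CPM with siMBD2. Of the luminal list, in scramble minus control Cdh1 was higher (0.53, edgeR adjusted p = 0.0102) and Krt19 lower (-1.37, 0.0143). Of the 7 basal or myoepithelial markers tested, 1 was lower with KCC-07, against 2.08% of all genes, and 0 were higher. It was Oxtr (-1.83, edgeR adjusted p = 0.00907), while Krt17 (0.45) and Acta2 (0.05) lay above 0 without passing. Trp63 was the 1 basal marker that passed in scramble minus control (-0.97, edgeR adjusted p = 0.0285). The part of the luminal and basal markers in the results on the Notch genes was also not tested.

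**Figure D4:**
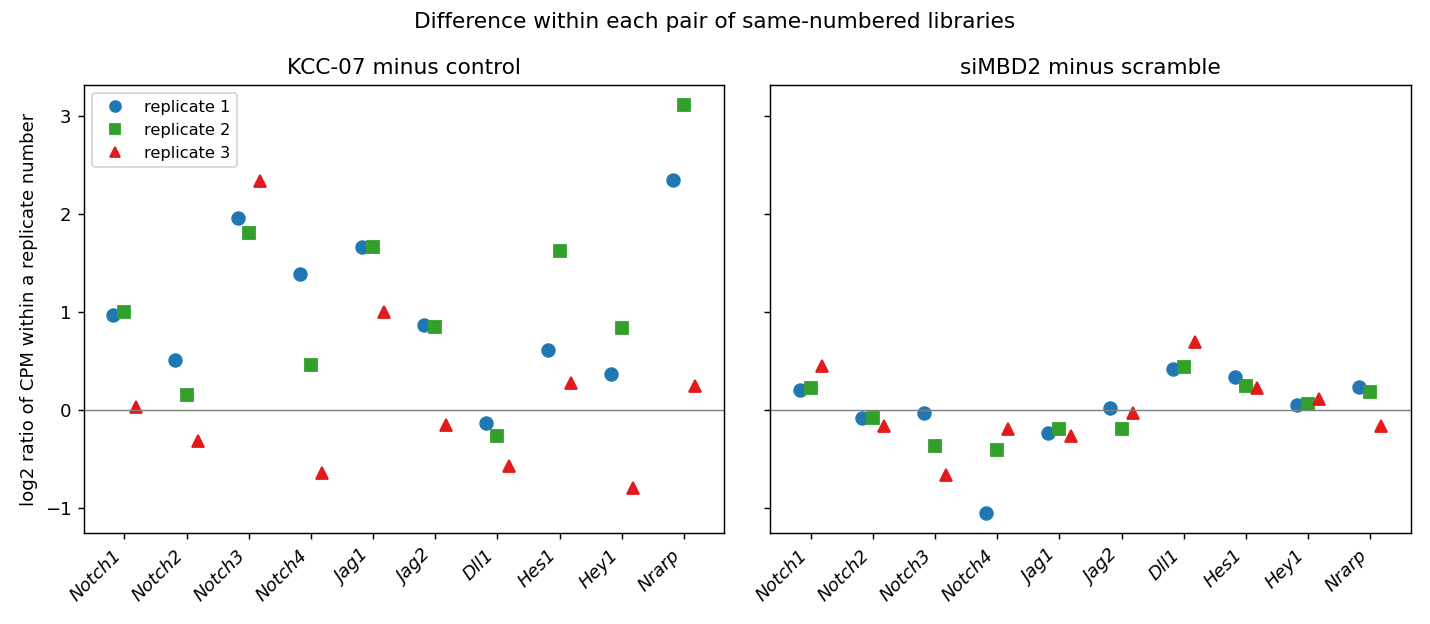
Log2 ratio of CPM between the treated and the reference library of the same replicate number, for KCC-07 against control and siMBD2 against scramble. Nrarp ranges from 0.25 to 3.11 over the KCC-07 pairs, while the knockdown pairs of every gene but Notch4 lie within 1 of 0.

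Knockdown of Mbd2 changed none of the 10 Notch genes past the threshold. Over all genes 6 passed, 0.0402% of those tested, all of them lower, and 786 had an unadjusted p under 0.05, among them 1 member, Dll1. DESeq2 also called 0 of the 9 members to which it gave an adjusted p (all but Notch4) and called 0.651% of all genes. Of the members 5 lay above 0 and 5 below, with a median of 0.00, equal to that over all genes to 2 decimals. In the 6 siRNA libraries fitted alone with the block, Notch1 (0.29), Dll1 (0.52) and Hes1 (0.28) passed, where 19.8% of all genes did.

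Dll1 stood at 49.5, 52.8 and 39.7 CPM with scramble and at 66.1, 71.6 and 64.1 CPM with siMBD2. All siMBD2 libraries lay above all scramble libraries, as for 10.3% of all genes. The log2 difference was 0.51 (SE 0.216, edgeR unadjusted p = 0.0373, adjusted p = 0.871), a fold of 1.42. With the block it was 0.52 (edgeR adjusted p = 0.0782), where 0.75% of all genes passed, and without the replicate 3 libraries 0.43 (edgeR adjusted p = 0.0286), where 1.08% did.

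The target genes moved little with the knockdown. Hes1 stood at 237, 259 and 226 CPM with scramble and at 301, 308 and 265 CPM with siMBD2, a log2 difference of 0.27 (95% interval from edgeR -0.39 to 0.93). Hey1 stood at 71.1 to 73.4 CPM and 75.6 to 76.6 CPM, the tightest values of any member, a difference of 0.07. For both genes all siMBD2 libraries lay above all scramble libraries, as for Dll1 and for 10.3% of all genes. Neither difference passed (edgeR adjusted p = 1 for each). Nrarp stood at 18.2, 18.9 and 13 CPM with scramble and at 21.4, 21.3 and 11.7 CPM with siMBD2.

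Notch1 stood at 362, 375 and 182 CPM with scramble and at 416, 439 and 248 CPM with siMBD2, so that replicate 3 was the lowest of both groups and each pair was higher by a fold of 1.15 to 1.37. Notch3 stood at 4.81, 4.40 and 6.89 CPM and at 4.71, 3.39 and 4.37 CPM. Jag1 stood at 10, 9.35 and 6.85 CPM and at 8.57, 8.20 and 5.70 CPM. Notch2 ran from 134 to 161 and from 120 to 153 CPM, Jag2 from 10.1 to 11.7 and from 8.87 to 11.5 CPM, and Notch4 from 0.283 to 0.546 and from 0.137 to 0.478 CPM. For all 5 of these besides Notch1 the log2 difference lay between -0.41 and -0.06 (edgeR adjusted p = 1).

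The difference between the effect of the compound and that of the knockdown was tested directly and passed for none of the 10 members, while 0.656% of all genes passed. It was closest for Notch3, at 2.49 on the log2 scale (SE 0.568, edgeR adjusted p = 0.0744), followed by Jag1 at 1.74 (0.163), Nrarp at 1.96 (0.216) and Dll1 at -0.87 (0.220). With the replicate block Notch3 (2.40, edgeR adjusted p = 0.00423), Jag1 (1.67, 0.00665) and Dll1 (-0.84, 0.0161) passed, where 6.9% of all genes did. DESeq2 called Notch3 (adjusted p = 0.000953) and Jag1 (0.0266), beside 4.39% of all genes. Without the replicate 3 libraries Notch1 (0.77), Notch3 (2.07), Jag1 (1.86), Dll1 (-0.62) and Nrarp (2.39) passed, beside 10.6% of all genes. In the fit of all 12 libraries without the block, the unadjusted edgeR p was under 0.05 for Notch3, Jag1, Dll1 and Nrarp. So it was for 2174 of the 14935 genes tested.

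Transfected cells were compared with control cells by scramble minus control, which shares the control libraries with the KCC-07 comparison. Whether these groups shared cultures is unclear, so transfection and a difference between cultures cannot be told apart. None of the 10 members passed, where 8.79% of all genes did, nor did any by DESeq2, where 15.4% did. For this comparison the replicate number was a block shared by both arms, not a block within each arm. With this shared block none of the members passed either, where 13.8% of all genes did. Same-numbered libraries of these groups correlated at only 0.07, 0.02 and 0.13. Without the block, Notch1 was the 1 member with an unadjusted edgeR p under 0.05, beside 4062 of the 14935 genes tested. Its log2 difference was 0.67 (edgeR adjusted p = 0.171), beside 0.62 with KCC-07. Notch3 differed by 0.56 and Hes1 by 0.39, beside 2.13 and 0.68 with KCC-07, and Jag1 by -0.23. Without the replicate 3 libraries Notch1 (1.24), Notch2 (0.54), Notch3 (0.75), Jag2 (0.76) and Dll1 (0.52) passed, where 41.1% of all genes did.

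A wider list of 58 genes of the pathway held 49 that were tested, and 39 of these were not among the 10 members. With KCC-07 1 of the 39 passed, 2.56% against 5.65% of all genes, and their median log2 fold change was 0.08. By role, and with the members counted in, 2 of 9 receptors and ligands, 1 of 10 genes of the nuclear complex and 1 of 5 target genes rose. None passed of 4 genes of receptor glycosylation, 8 of cleavage and 13 of trafficking, ubiquitin and endocytosis, and none fell in any role. With the replicate block 7 of the 39 rose and 1 fell, 20.5% against 21.8% of all genes.

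**Figure D5:**
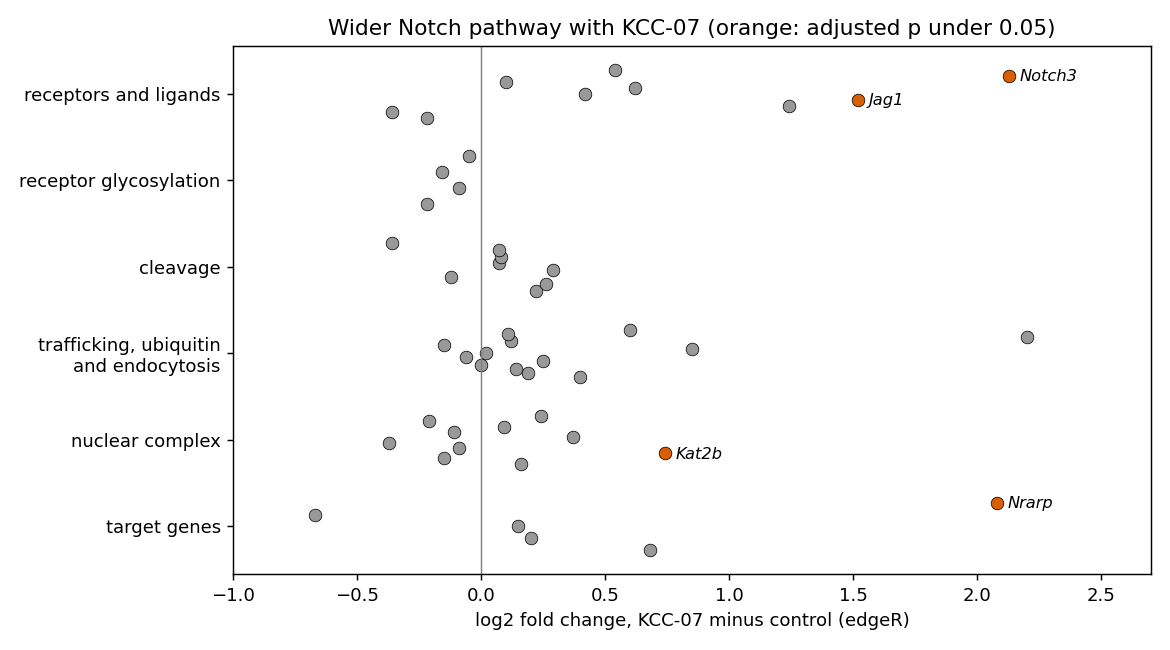
Log2 fold change with KCC-07 for the 49 tested genes of the wider pathway, by role, with genes past the threshold in orange. The orange points are Notch3, Jag1, Kat2b and Nrarp. The grey point near 2.2 is Neurl3, a ubiquitin ligase gene with a mean of 0.109 CPM in control.

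The gene beyond the members that rose was Kat2b, which encodes a histone acetyltransferase recruited by the Notch complex. It stood at 28.9, 31.7 and 32.4 CPM in control cells and at 49.2, 50.1 and 55.9 CPM with KCC-07, and at 45.3, 47.4 and 43.6 CPM with scramble and 36.4, 36.1 and 34.1 CPM with siMBD2. Treated libraries lay above all controls, as for 12.3% of all genes, and siMBD2 libraries below all scramble libraries, as for 11.6%. The log2 fold change was 0.74 with KCC-07 (SE 0.0881, edgeR adjusted p = 0.00189) and -0.35 with the knockdown (edgeR adjusted p = 0.347), and the difference of these effects passed (1.09, edgeR adjusted p = 0.00676). It was also higher in scramble than in control (0.55, edgeR adjusted p = 0.0059). A pseudogene, Kat2b-ps, matches 53.3% of its transcript at 95% identity or more, so these values are uncertain. Rbpj, the gene of the DNA-binding partner, differed by 0.09 with KCC-07 (edgeR adjusted p = 0.469). Psenen, a gamma-secretase subunit gene, differed by -0.36 with KCC-07 (edgeR adjusted p = 0.0503, and 0.023 with the block). In scramble minus control 6 of the 49 tested genes of the list passed, 12.2% against 8.79% of all genes: Kat2b, Aak1 (0.59), Psen2 (0.49) and Dtx2 (0.41) were higher and Rbpj (-0.30) and Psenen (-0.38) lower, with edgeR adjusted p from 0.0059 to 0.0461.

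The genes most like each of 4 members over the 12 libraries were found by Pearson correlation of log2 CPM among 11124 candidates, as a description. They were Man2b1, Tedc1 and Lrrk2 for Notch3 (r = 0.975 each), Sfn, Arl4a and Jade1 for Nrarp (0.944, 0.931 and 0.925), Jade1, Spsb1 and Bdkrb1 for Jag1 (0.981, 0.947 and 0.942), and Trib1, Uggt2 and Mysm1 for Hes1 (0.904, 0.898 and 0.887). Jade1 was thus near both Jag1 and Nrarp. The 12 libraries share their treatments and replicate numbers, so these values reflect the groups as well as the genes.

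Several members overlap genes on the opposite strand, and the strand setting of the counting was not given in the sources used here. Exons of Nrarp overlap Gm38287, those of Notch3 overlap Gm17276, those of Dll1 overlap A930024N18Rik, and those of Notch1 overlap 0610009E02Rik and Gm13568. Their values are uncertain to that extent. Gm38287 stood at 0.716, 0.503 and 0.223 CPM with KCC-07 and at no more than 0.0586 CPM in control, far below Nrarp, and Gm17276 had at most 0.029 CPM in any library. Apart from Nrarp, no member had another gene that matched at least 50% of its transcript at 95% identity. For Nrarp, Gm38287 at the same locus matched 79.6% of the transcript, so its values are uncertain while the strand setting is unknown.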

How the data were processed

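Polyadenylated RNA of 12 libraries was sequenced, 3 per group. The authors deposited raw counts per gene. Per the submitters' processing notes DRAGEN and DESeq2 1.44.0 were used, with mm10 or GRCm38.p6 as the build, and how reads were counted was not given in the sources used here. Counts were analysed as deposited with edgeR 4.0.16 in R 4.3.3: TMM scaling, a filter on low counts (minimum count 10, minimum total 15) and the quasi-likelihood test on 1 mean per group with 8 residual degrees of freedom. P-values were Benjamini-Hochberg adjusted over 14935 genes. The code was tested on simulated counts. With 3 libraries against 3 an exact test of a single gene cannot go below p = 0.1, so genes were tested only in models fitted across all genes.

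The members and lists were chosen with earlier results of these data known. Named were the 10 members and every gene of the wider list past the threshold with KCC-07 or siMBD2. Rbpj, Psenen, Neurl3, Aak1, Psen2 and Dtx2 were named after their values were seen. Exon lengths and positions came from GENCODE on GRCm38. The labels' batch tag gives the pairing by replicate number, but library names number replicate 3 as 4 in the control and KCC-07 groups and as 3 in the siRNA groups, so whether a number marks shared cultures across these arms is unclear. Deviations from the group means correlated at 0.27, 0.28 and 0.48 in same-numbered control and KCC-07 libraries and at 0.09, 0.15 and 0.42 in scramble and siMBD2 libraries, and replicates 1 and 2 correlated with each other's numbers about as well (0.17 to 0.30). Alternatives were DESeq2 1.42.0, its size factors, other filters, the replicate block, 6 libraries alone and each library left out.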

Additional observations from a re-analysis of the deposited data

Results flagged for a closer look

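Notch3, Jag1 and Dll1 stood out because all 3 replicate pairs moved one way with KCC-07 and all 3 moved the other way with siMBD2, a pattern shown by 3 of the 10 members and by 10.9% of all genes tested. For Notch3 the difference of the effects was 2.49 on the log2 scale (SE 0.568, edgeR adjusted p = 0.0744), with pairs at 1.96, 1.81 and 2.34 for the compound and at -0.03, -0.37 and -0.66 for the knockdown. For Jag1 it was 1.74 (SE 0.540, edgeR adjusted p = 0.163), with pairs at 1.66, 1.66 and 1.00 and at -0.23, -0.19 and -0.26. For Dll1 it was -0.87 (SE 0.306, edgeR adjusted p = 0.220), with pairs at -0.13, -0.26 and -0.57 and at 0.42, 0.44 and 0.69. None of the 3 differences passed, and all 3 passed with the replicate block, beside 6.9% of all genes. The smallest pair difference behind the pattern was -0.03, for Notch3.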

How the results depend on the processing

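With the replicate block the genes called, of 14935 tested, were 3251 with KCC-07 (844 without it) and 112 with siMBD2 (6). They were 2062 for scramble minus control (1313) and 1030 for the difference of effects (98). In the order given these were 21.8, 0.75, 13.8 and 6.9% of all genes. For scramble minus control the block was shared by both arms. Of the 10 members 5 (3) were called with KCC-07 and 3 (0) for the difference. Of the 49 tested genes of the wider pathway 13 (4) were called with KCC-07. The block changed no other count of members. Shares in brackets below are of all genes tested in that fit. In 6 libraries alone 1 gene (0.00688%), 0 members and 0 wider pathway genes were called with KCC-07. With siMBD2 177 genes (1.26%) and 1 wider gene were called. In 6 libraries with the replicate block 412 genes (2.84%) were called with KCC-07 and 311 (2.17%) for scramble minus control. With siMBD2 2790 genes (19.8%), 3 members and 14 wider genes were called. DESeq2 called 1871, 84, 2299 and 617 genes (12.5, 0.651, 15.4 and 4.39%) for KCC-07, siMBD2, scramble minus control and the difference. It called 2 members for the difference and 1 wider gene with siMBD2. With no filter 176 genes (0.656%) and 1 member were called for the difference. Without replicate 3 of all groups the genes called were, in the same order, 3832, 162, 6164 and 1583 (25.6, 1.08, 41.1 and 10.6%). The members called were 6, 1, 5 and 5, and the wider genes 18 with KCC-07 and 1 with siMBD2. Hey1 in scramble minus control turned to 0.13. Leaving out 1 library at a time gave 384 to 2112 genes (2.51 to 13.9%) with KCC-07 and 2 to 3 (0.0131 to 0.0197%) with siMBD2. It gave 293 to 3110 (1.91 to 20.4%) for scramble minus control and 11 to 320 (0.0719 to 2.1%) for the difference. It gave 0 to 4 members with KCC-07, 0 to 2 for scramble minus control and 0 to 1 for the difference, and 1 to 11 wider genes with KCC-07. Log2 values that changed sign ranged with KCC-07 from -0.05 to 0.23 for Notch2 and from -0.08 to 0.38 for Hey1. With siMBD2 they ranged from 0.00 to 0.48 for Notch1, -0.18 to 0.00 for Notch2, -0.15 to 0.03 for Jag2 and -0.03 to 0.36 for Nrarp. For scramble minus control they ranged from -0.40 to 0.16 for Jag1, -0.08 to 0.41 for Dll1, -0.30 to 0.12 for Hey1 and -0.07 to 0.48 for Nrarp, and for the difference from -0.16 to 0.30 for Hey1. The cause of these shifts was not tested. Notch4 had the fewest counts of the members, 4 to 27 per library.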
